A study of Mus musculus with 6 samples.

Results

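The genes of polyamine metabolism were followed in the prostate of mice given testosterone and estradiol. The 10 genes Odc1, Amd1, Srm, Sms, Oaz1, Azin1, Azin2, Sat1, Smox and Paox were chosen by name from the 34745 genes of the deposited table. RNA-seq was carried out on bulk prostate of male C57BL/6 mice, young adults at the start, 3 in each group. In the T + E2 group slow-release pellets holding testosterone and estradiol were kept under the skin for 12 weeks, with a new pellet each month, as a model of benign prostatic hyperplasia. The CON group had the operation (the skin cut and closed) with no pellet, so that the 2 hormones cannot be told apart from each other or from the pellet itself. The prostate lobes sampled are not stated, and both groups were wild-type animals as far as the labels say.

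Polyamines (putrescine, spermidine and spermine) are small positively charged molecules that bind nucleic acids and are needed for growth. Ornithine decarboxylase makes putrescine from ornithine, and the aminopropyl groups that turn putrescine into spermidine and spermidine into spermine come from decarboxylated S-adenosylmethionine. Antizyme, whose translation polyamines themselves promote, binds ornithine decarboxylase and sends it to the proteasome, and antizyme inhibitors take antizyme away. The prostate is known for its rich polyamine synthesis, and it secretes spermine into semen.

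Reads assigned to genes numbered 14819273 to 16026544 in the CON libraries and 14816146 to 16555549 in the T + E2 libraries. Levels are given as CPM (counts scaled to a common library total) scaled by TMM factors, which adjust each library's total for its composition, and error is the SD over 3 mice unless stated otherwise. The prostate markers Hoxb13, Pbsn, Krt8 and Krt18 were all detected in every mouse. CON mouse 2 and T + E2 mouse 2 stood apart by seminal vesicle transcripts. Together 7 such markers summed to 10322 and 643 CPM there and to between 0.629 and 4.11 CPM in the other 4 libraries. The highest marker was Svs5 (5042 CPM) in CON mouse 2 and Svs2 (484 CPM) in T + E2 mouse 2. In T + E2 mouse 2, Svs1, Svs3a and Svs6 had only 4, 3 and 3 counts. CON mouse 2 also had the highest sum of 3 fat markers, 455 CPM against 37.6 to 119 CPM elsewhere.

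Promoter windows from RefSeq on GRCm38.p6 matched 7 of the 10 genes. Azin1, Azin2 and Srm had no window and were not searched, so nothing is said here on the promoter of Azin1. The windows of the enzyme that opens the pathway and of the synthesis gene that fell are shown. They are given as the 250 bases before each start, with motif matches in capitals. The table gives Odc1 one start (chr12:17544623-17544872, plus strand) and Sms a distal start (chrX:157492288-157492537, minus strand) and a second one inside the gene (chrX:157491369-157491618, minus strand).
Odc1: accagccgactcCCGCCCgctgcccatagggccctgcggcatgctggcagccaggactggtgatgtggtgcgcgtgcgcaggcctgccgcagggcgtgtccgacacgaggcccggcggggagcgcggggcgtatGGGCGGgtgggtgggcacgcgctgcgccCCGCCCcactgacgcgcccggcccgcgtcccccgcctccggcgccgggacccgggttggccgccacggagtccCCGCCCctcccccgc
Sms, distal start: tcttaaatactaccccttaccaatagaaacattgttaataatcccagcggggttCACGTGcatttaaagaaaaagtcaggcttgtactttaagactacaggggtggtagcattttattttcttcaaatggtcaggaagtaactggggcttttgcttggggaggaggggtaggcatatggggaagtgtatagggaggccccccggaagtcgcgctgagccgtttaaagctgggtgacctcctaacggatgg
Sms, inner start: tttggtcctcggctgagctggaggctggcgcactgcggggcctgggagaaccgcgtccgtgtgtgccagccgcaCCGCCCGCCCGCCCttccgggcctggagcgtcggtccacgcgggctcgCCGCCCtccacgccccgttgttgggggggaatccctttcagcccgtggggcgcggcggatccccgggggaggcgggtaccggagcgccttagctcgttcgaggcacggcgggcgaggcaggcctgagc
The capitals mark GC boxes (GGGCGG on either strand, the letters that Sp1-type factors bind) in Odc1 and at the inner Sms start, where the first 3 matches overlap, and an E-box (CACGTG, the letters bound by Myc and Max) at the distal Sms start. Odc1 held 4 GC boxes and the inner Sms window 4, and 35.9% of the 32544 promoter windows of 300 bases held at least 1. The E-box lay 196 bases before the distal start, in a set where 7.17% of windows held one, and Sms was the only one of the 7 matched genes with a match. GC boxes were present in 6 of the 7, and the exact TATA box letters TATAAA (either strand) were present in Oaz1 alone, against 13.6% of all windows. That match began 3 bases before the annotated start. Other forms of the box were not searched, and the Amd1 window held the letters TATATAA. None of the 7 held a CRE (TGACGTCA), a full oestrogen response element or a full androgen response element in its windows, and 1.80%, 0.0707% and 0.00922% of all windows did. A match describes letters in a short window and not a bound site.

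A second sequence shows how antizyme is regulated. In Oaz1 the first reading frame ends after 68 codons, and the full protein is made only when ribosomes shift frame at this place (chr10:80828280-80828309, GRCm38, plus strand).
Oaz1 frameshift site: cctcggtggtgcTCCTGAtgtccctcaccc
The capitals mark the last sense codon, TCC, and the stop codon, TGA. RNA-seq counts the transcript whichever frame is read, so the levels of Oaz1 below say nothing on how much antizyme was made. The same 30 bases stand in the pseudogene Oaz1-ps.

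Between the groups, Azin1 was higher and Sms lower in the T + E2 group, and the other 8 genes did not pass the test. Each gene was tested with the quasi-likelihood test of edgeR over all 15580 genes with enough reads, and a call needed a Benjamini-Hochberg adjusted p under 0.05. All 10 polyamine genes passed the filter on low counts. The calls were 2 of 10, against 19.6% of all tested genes, a share near that background, which is therefore no result about these genes as a group. One gene was higher (10.4% of all tested genes) and one lower (9.25%). The median log2 fold change of T + E2 over CON was -0.13 over the 10 genes and -0.00207 over all tested genes. These were the 2 genes whose groups did not overlap, which 40.7% of all tested genes also showed (20.0% higher and 20.7% lower). With the added requirement of an absolute log2 fold change over 1, which 7.64% of tested genes met, Sms was called and Azin1 was not. In bulk tissue, fewer cells of a type and less RNA per cell cannot be told apart, and this holds for every level given here.

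**Figure D1:**
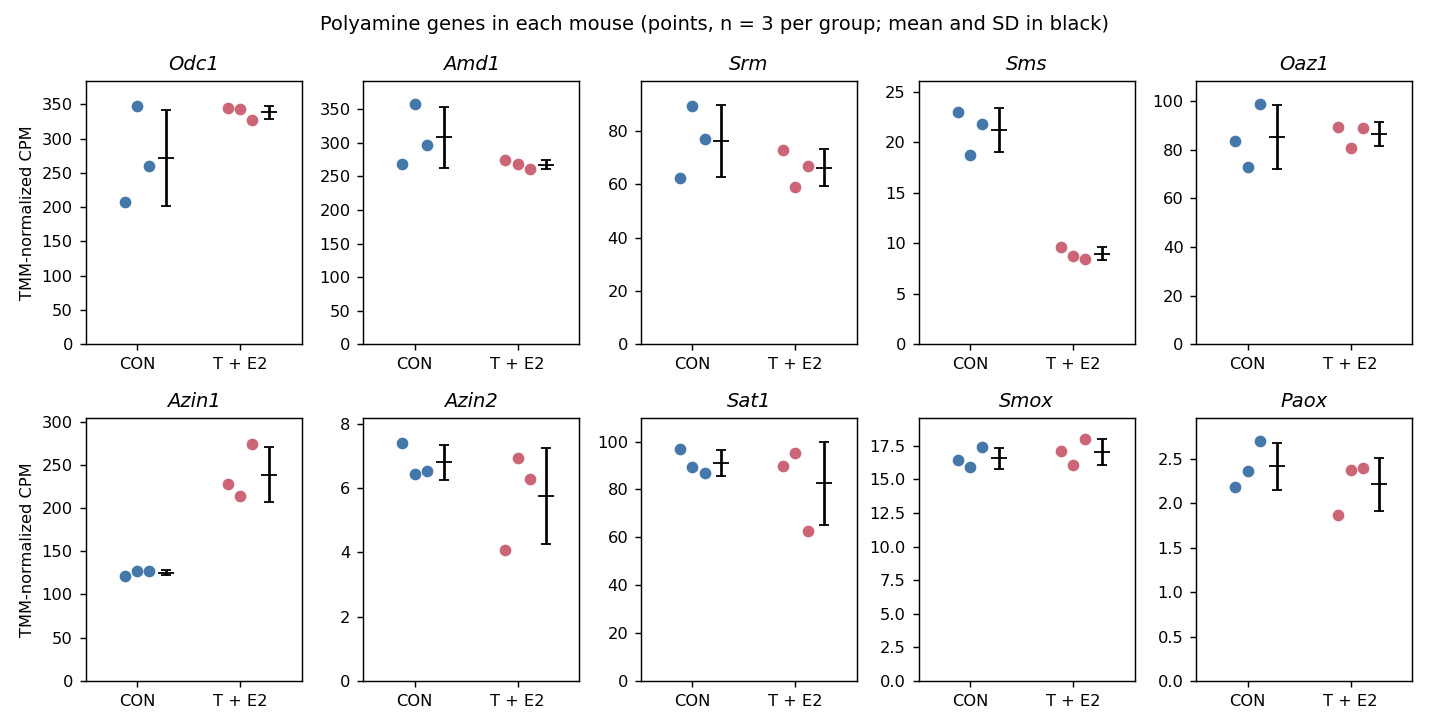
TMM-normalized CPM (vertical axes, each from 0) of the 10 polyamine genes in the 3 CON and 3 T + E2 mice. Points are mice and the black bars are the mean and SD. Sms (8.48 to 9.68 CPM in T + E2 against 18.8 to 23.0 CPM) and Azin1 (214 to 274 against 122 to 127 CPM) are the panels in which the groups are apart.

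The plot of levels by mouse shows each gene on its own scale. For the 4 synthesis genes, Sms fell and Odc1, Amd1 and Srm were not called. Odc1 (GRCm38 chr12:17544873-17551502) encodes ornithine decarboxylase, the first and most tightly regulated step. Its level was 208, 347 and 261 CPM in CON mice 1, 2 and 3 and 345, 343 and 327 CPM in the T + E2 mice. The T + E2 mice lay close together, CON mouse 2 was at their level, and the other 2 CON mice were below it. The means were 272.0 ± 70.3 and 338 ± 10.1 CPM, and the log2 fold change was 0.31 (SE 0.17, 95% interval -0.08 to 0.71, edgeR adjusted p = 0.237). Single CON mice moved this value in both directions: without CON mouse 1 the log2 fold change was 0.15 (edgeR adjusted p = 0.483), and without CON mouse 2, which also carried the seminal vesicle and fat transcripts, it was 0.53 (SE 0.13, edgeR adjusted p = 0.0373). Without both libraries with seminal vesicle transcripts it was 0.52, with an edgeR adjusted p of 0.0876. The part of these transcripts in the level of Odc1 was not tested.

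Amd1 (GRCm38 chr10:40287458-40302188) encodes S-adenosylmethionine decarboxylase, which makes the aminopropyl donor. The CON mice had 269, 358 and 298 CPM and the T + E2 mice 274, 268 and 261 CPM. The groups overlapped through CON mouse 1, and CON mouse 2 was again the highest. The log2 fold change was -0.20 (95% interval -0.48 to 0.07, edgeR adjusted p = 0.259), and without CON mouse 2 it was -0.08. Amd1 has close copies in the mouse genome, among them the gene Amd2 (99.6% identical over 3202 aligned bases, 193 to 254 counts per mouse) and the pseudogene Amd-ps3 (99.9% over 1005 bases, 1008 to 1446 counts). Counts on 6 such copies made up 28.8% to 32.5% of the summed reads, and the division of reads between them is uncertain. With all of them summed, an alternative chosen after the data were seen, the log2 fold change was -0.17 (edgeR adjusted p = 0.333).

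Srm (GRCm38 chr4:148591503-148594993) encodes spermidine synthase, which adds the first aminopropyl group. Its level was 62.3, 89.5 and 77.3 CPM in CON and 72.8, 59.0 and 67.0 CPM in T + E2. The 2 ranges overlapped and CON mouse 2 was the highest, as for Odc1 and Amd1. The log2 fold change was -0.20 (95% interval -0.54 to 0.13, edgeR adjusted p = 0.356). It was -0.33 without CON mouse 1, -0.08 without CON mouse 2, -0.13 without T + E2 mouse 2 and 0.00205 without the 2 libraries with seminal vesicle transcripts.

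Sms (GRCm38 chrX:157443855-157492287) encodes spermine synthase, which adds the second aminopropyl group and so makes spermine. The CON mice had 23.0, 18.8 and 21.8 CPM, from 348, 286 and 347 counts. The T + E2 mice had 9.68, 8.77 and 8.48 CPM, from 140, 144 and 127 counts. Every T + E2 mouse was below every CON mouse, and the spread inside each group was small beside the gap. The means were 21.2 ± 2.19 and 8.98 ± 0.631 CPM, 2.36-fold higher in CON, and the log2 fold change was -1.24 (SE 0.13, 95% interval -1.54 to -0.95, edgeR adjusted p = 0.000561). This absolute change was larger than that of 93.2% of tested genes. Over 17 other ways of fitting or scaling the data, the log2 fold change lay between -1.32 and -0.82. The adjusted p lay between 7.11e-10 and 0.00673, and Sms was called in all of them. Sms also has 7 similar pseudogenes, among them Sms-ps (100% identical over 1101 aligned bases). None of them is among the deposited genes, so their reads could not be summed with those of Sms. The alternative that sums near copies covered Amd1 and Oaz1 only, and the part of these pseudogenes was not tested.

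**Figure D2:**
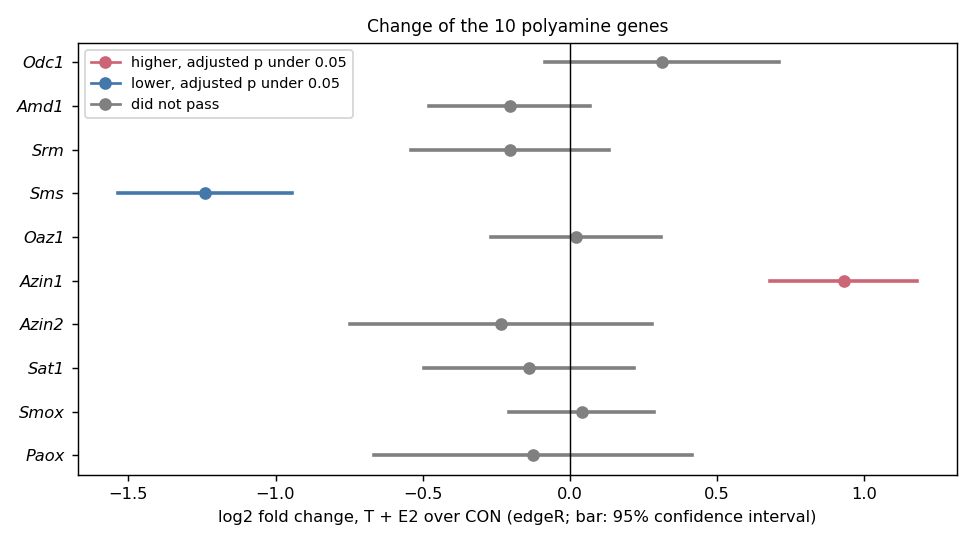
Log2 fold change of T + E2 over CON (horizontal axis) for the 10 polyamine genes, from the edgeR fit over 3 mice per group. Points are estimates and bars are 95% confidence intervals, which cross 0 for the 8 genes that were not called and lie apart from 0 for Sms (-1.54 to -0.95) and Azin1 (0.68 to 1.18).

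The intervals in the plot of changes set the sizes that these data leave possible for the uncalled genes. Of the antizyme and its inhibitors, Azin1 rose and Oaz1 and Azin2 were not called. Oaz1 (GRCm38 chr10:80826656-80829290) encodes antizyme 1, which binds ornithine decarboxylase and leads it to degradation. Its level was 83.8, 72.7 and 98.9 CPM in CON and 89.5, 80.6 and 89.1 CPM in T + E2. The T + E2 values lay inside the CON range. The log2 fold change was 0.02 (95% interval -0.27 to 0.31, edgeR adjusted p = 0.923), and its sign turned under 8 of 17 alternatives, so no direction can be given. Oaz1-ps, 99.3% identical over 685 aligned bases, held 45.4% to 48.2% of the reads summed over both, and with the 2 added together, also chosen after the data were seen, the log2 fold change was 0.00587.

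Azin1 (GRCm38 chr15:38487430-38519266) encodes antizyme inhibitor 1, a relative of ornithine decarboxylase without its enzyme activity that binds antizyme and so spares the decarboxylase. The CON mice had 122, 127 and 127 CPM and the T + E2 mice 228, 214 and 274 CPM. All T + E2 mice were above all CON mice, with T + E2 mouse 3 the highest. The means were 125 ± 3.04 and 239 ± 31.5 CPM, 1.91-fold higher in T + E2, and the log2 fold change was 0.93 (SE 0.11, 95% interval 0.68 to 1.18, edgeR adjusted p = 0.00102). This was a larger absolute change than in 88.5% of tested genes. Over the 17 alternatives the log2 fold change lay between 0.82 and 1.01 and the adjusted p between 3.18e-12 and 0.0095, with a call in each. An annotated antisense transcript shares 358 exonic bases with Azin1, and since a strand setting is not given in the sources used here, reads from the 2 strands cannot be told apart.

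Azin2 (GRCm38 chr4:128930233-128962442) encodes the second antizyme inhibitor, known mainly from testis and brain. It was at 7.42, 6.44 and 6.54 CPM in CON and 4.08, 6.94 and 6.27 CPM in T + E2. T + E2 mouse 1 was lowest and the others lay at the CON level. The log2 fold change was -0.24 (95% interval -0.75 to 0.28, edgeR adjusted p = 0.491), from 59 to 114 counts per mouse. Without T + E2 mouse 1 it was -0.04, and without T + E2 mouse 2 it was -0.39.

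Set against antizyme in the same library, the ratio of deposited FPKM (fragment counts scaled to gene length and library total) of Azin1 to Oaz1 was 0.569, 0.683 and 0.502 in CON and 0.995, 1.04 and 1.21 in T + E2. These groups did not overlap. The ratio of Odc1 to Oaz1 was 5.24, 10.1 and 5.56 in CON and 8.13, 8.98 and 7.74 in T + E2. Here CON mouse 2 was above every T + E2 mouse, and the other 2 CON mice were below them. The ratios compare a gene pair between mice, and their absolute size depends on the gene lengths that the deposited values used.

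**Figure D3:**
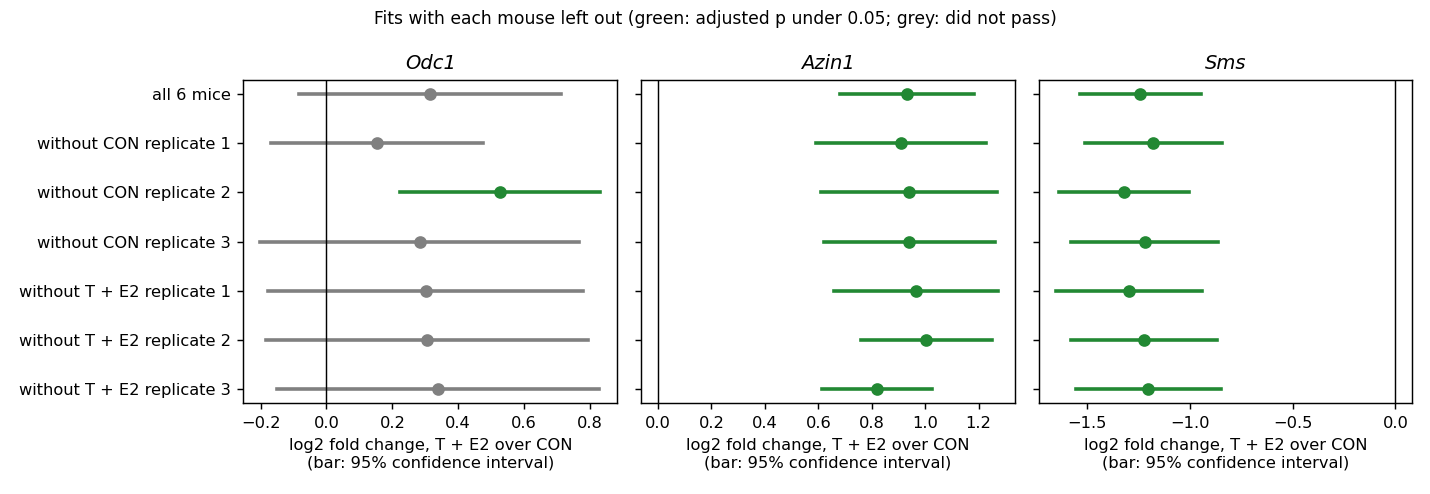
Log2 fold change of T + E2 over CON (horizontal axes, bars 95% confidence intervals) for Odc1, Azin1 and Sms with all 6 mice and with each mouse left out. Green points had an edgeR adjusted p under 0.05 and grey points did not. Azin1 and Sms stayed called throughout, and Odc1 was called in 1 fit, without CON mouse 2 (0.53).

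The plot of fits with a mouse left out sets these 3 genes side by side. None of the 3 catabolic genes was called. Sat1 (GRCm38 chrX:155213132-155216449) encodes spermidine/spermine N1-acetyltransferase, which tags polyamines for export or oxidation. It was at 97.0, 89.2 and 86.8 CPM in CON and 89.7, 95.2 and 62.8 CPM in T + E2. T + E2 mouse 3 was the lowest and the other mice overlapped. The log2 fold change was -0.14 (95% interval -0.50 to 0.22, edgeR adjusted p = 0.564), and it was 0.02 without T + E2 mouse 3, -0.25 without T + E2 mouse 2 and -0.09 without CON mouse 1.

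Smox (GRCm38 chr2:131491496-131525922) encodes spermine oxidase, which turns spermine back into spermidine. The CON values were 16.4, 15.9 and 17.4 CPM and the T + E2 values 17.1, 16.1 and 18.0 CPM. The mice of both groups were interleaved within a narrow range. The log2 fold change was 0.04 (95% interval -0.21 to 0.29, edgeR adjusted p = 0.820), the narrowest interval among the 10 genes. The FPKM ratio of Smox to Sat1 was 0.0933, 0.0982 and 0.110 in CON and 0.105, 0.0929 and 0.158 in T + E2, with T + E2 mouse 3, low in Sat1, the highest.

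Paox (GRCm38 chr7:140125657-140134334) encodes the peroxisomal polyamine oxidase that acts on acetylated polyamines. Its level was 2.19, 2.37 and 2.70 CPM in CON and 1.87, 2.37 and 2.40 CPM in T + E2, from 27 to 43 counts per mouse. The groups overlapped, and the interval was the widest of the 10 genes (log2 fold change -0.13, 95% interval -0.67 to 0.42, edgeR adjusted p = 0.744). In the annotation used to find overlaps, Paox shares 142 exonic bases with Echs1 on the opposite strand, which had up to 1030 counts. That annotation places Paox at chr7:140115799-140137224, a wider span than the deposited locus above. Whether the shared bases lie inside the deposited locus was not tested, so their part in the Paox reads is not known. Without CON mouse 3 or T + E2 mouse 1 the log2 fold change of Paox was -0.04 and -0.02, and without CON mouse 1 it was -0.19.

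To compare levels between genes, CPM was divided by the length of each gene's longest coding transcript. On this scale Odc1 had the highest CON mean, 123 ± 31.8 CPM per kilobase, followed by Amd1 (96.2 ± 14.2), Oaz1 (79.5 ± 12.3) and Sat1 (78.3 ± 4.56). Neighbours among these 4 overlapped between mice, so their order is not resolved. Srm followed at 57.1 ± 10.2 and Azin1 at 25.7 ± 0.624 CPM per kilobase, and from Sat1 downward no 2 neighbours overlapped in CON. The lowest levels per length were those of Smox (7.21 ± 0.334), Sms (5.71 ± 0.589), Azin2 (3.30 ± 0.261) and Paox (0.519 ± 0.0565). The length used for Paox, 4655 bases, came from an annotation in which the gene is wider than its deposited locus. Its level per length may therefore be too low. Mean deposited FPKM was 1.26 for Paox and 1.36 for Azin2 in CON, and 1.13 for both in T + E2. In the T + E2 group Azin1, at 49.0 ± 6.47 CPM per kilobase, overlapped Srm at 49.5 ± 5.17. Sms, at 2.41 ± 0.170, had a mean below that of Azin2 (2.79 ± 0.725), and these also overlapped. The order depends on the length used. Over all annotated exonic bases the CON mean of Amd1 was 87.0 and that of Odc1 79.9 CPM per kilobase. It also depends on reads assigned to near copies, which are left out here. They were 28.8% to 32.5% of the summed reads for Amd1 and 45.4% to 48.2% for Oaz1. With those reads added, both genes would stand higher, with CON means above that of Odc1 per kilobase of longest coding transcript. Odc1 itself has 14 similar sequences, 2 of them among the deposited genes. Paox has a similar pseudogene, Gm19680 (99.9% identical over 1358 aligned bases), that is not among the deposited genes. The part of these sequences in the levels of Odc1 and Paox was not tested.

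**Figure D4:**
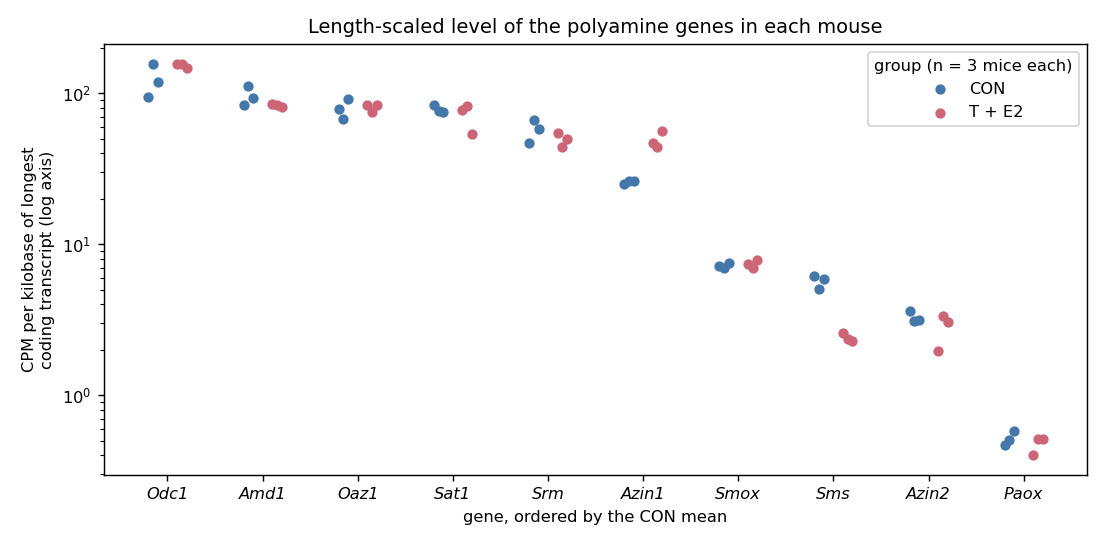
CPM per kilobase of the longest coding transcript (vertical log axis) for the 10 polyamine genes in each mouse, ordered by the CON mean. Points are mice, 3 per group. Azin1 sits near 25.7 in CON and 49.0 in T + E2, and Sms near 5.71 and 2.41. Paox is lowest in every mouse on this scale, with a length from an annotation wider than its deposited locus.

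The plot of length-scaled levels places Azin1 and Sms among the others. Markers of other cells moved in the same libraries. Of 4 luminal prostate markers 2 were lower in T + E2, Pbsn and Krt18. The sum of the 4 was 14039 to 18475 CPM in CON and 2558 to 3167 CPM in T + E2. Most of the fall in that sum was Pbsn alone, with means of 14177 CPM in CON and 1445 CPM in T + E2. Krt18 went from 896 to 616 CPM. Hoxb13 (461 and 416 CPM) and Krt8 (362 and 327 CPM) were not called. Of 4 urothelial markers 3 were tested and all 3, Upk1a, Upk1b and Upk2, were higher. The sum of the 4 was 422 to 642 CPM in CON and 1374 to 1700 CPM in T + E2. Upk1a and Upk1b made up nearly all of it, while Upk2 had means of 0.781 CPM in CON and 3.61 CPM in T + E2. Upk3a was at 0 counts in all CON mice and at 5, 99 and 3 counts in T + E2 mice 1, 2 and 3. Trp63, 1 of 3 basal markers, was higher, and Acta2, 1 of 4 smooth muscle markers, was lower, while none of 4 fibroblast, 4 leukocyte or 3 endothelial markers was called. The part of these shifts in the levels of Azin1 and Sms was not tested. Without the 2 libraries with seminal vesicle transcripts, an alternative chosen after the data were seen, Azin1 and Sms were both still called.

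Around the 10 genes, a list of 37 further genes covered precursor supply, transport, conjugation, hypusination and control of Odc1. Of these, 34 had enough reads to test, 4 were higher and 6 lower in T + E2 (against 10.4% and 9.25% of all tested genes), and 24 were not called, with a median log2 fold change of -0.19. Only Tgm4 passed an absolute log2 fold change of 1.

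Of 7 tested genes for arginine and ornithine, 1 was called. Slc7a1, the main carrier of cationic amino acids into cells, fell from 194, 172 and 191 CPM in CON to 109, 84.8 and 115 CPM in T + E2 (log2 fold change -0.85, edgeR adjusted p = 0.00307). Oat, the mitochondrial ornithine aminotransferase and an abundant gene of this list, was not called (log2 fold change -0.12, edgeR adjusted p = 0.440).

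Of 8 genes for S-adenosylmethionine supply and methionine salvage, 1 was called as well. Mat2a, which makes S-adenosylmethionine outside the liver, was at 543, 834 and 637 CPM in CON and 420, 354 and 396 CPM in T + E2, with no overlap and CON mouse 2 again the highest. Its log2 fold change was -0.78 (edgeR adjusted p = 0.0132), and without the 2 libraries with seminal vesicle transcripts it was -0.53 (edgeR adjusted p = 0.0678). Without T + E2 mouse 2 alone it was -0.72 (edgeR adjusted p = 0.0557). The salvage enzyme Adi1 was not called (log2 fold change 0.02, edgeR adjusted p = 0.934), and its sign turned with the scaling.

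Of 6 polyamine transport genes 4 were called, beside 19.6% of all tested genes, with Atp13a3 and Slc18b1 higher and Atp13a2 and Slc3a2 lower. Atp13a2, which carries polyamines out of lysosomes, fell, with 108 to 118 CPM in CON and 63.9 to 76.1 CPM in T + E2 (log2 fold change -0.67, edgeR adjusted p = 0.00277). Atp13a3, a related transporter linked to polyamine uptake, was at 132 to 167 CPM in CON and 186 to 233 CPM in T + E2 (log2 fold change 0.54, edgeR adjusted p = 0.0220). Slc3a2, the heavy chain of several amino acid carriers, had a log2 fold change of -0.52 (edgeR adjusted p = 0.0145), and Slc18b1, a vesicular polyamine carrier, one of 0.59 (edgeR adjusted p = 0.0221). The groups did not overlap for any of these 4 genes, as for 40.7% of all tested genes. With fewer mice 3 of these calls were lost while the log2 fold changes stayed about as large. Atp13a3 had 0.48, 0.49, 0.46 and 0.54 without CON mouse 2, CON mouse 3, T + E2 mouse 1 and T + E2 mouse 2 (edgeR adjusted p = 0.0751, 0.0818, 0.0764 and 0.0600). Slc18b1 had 0.52 and 0.61 without CON mouse 1 and CON mouse 2 (edgeR adjusted p = 0.0656 and 0.0574), and Slc3a2 had -0.49 without CON mouse 3 (edgeR adjusted p = 0.0561). Without both libraries with seminal vesicle transcripts, Atp13a3 had 0.48 (edgeR adjusted p = 0.148) and Slc18b1 0.66 (edgeR adjusted p = 0.0907).

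Among genes of conjugation and extracellular oxidation, Tgm4, the prostate transglutaminase that cross-links seminal proteins and uses spermine as a substrate, was at 24365, 18807 and 27266 CPM in CON and 4141, 2391 and 2856 CPM in T + E2. All T + E2 mice were far below all CON mice (log2 fold change -2.91, edgeR adjusted p = 0.000158). Tgm2, the tissue transglutaminase, rose, with 159 to 179 CPM in CON and 234 to 257 CPM in T + E2 (log2 fold change 0.52, edgeR adjusted p = 0.00563). Aoc1, a diamine oxidase that breaks down putrescine, had 0 counts in every CON mouse and 11, 11 and 10 counts in the T + E2 mice. It had too few reads to pass the filter on low counts and was not tested in the main fit. Its result in the fit without that filter is not given here. Its T + E2 mean was 3.59 times a floor of 3 counts per CON library, a value that leaves out the error of the T + E2 counts.

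Neither the 4 genes of eIF5A hypusination, in which spermidine is used to modify a translation factor, nor the 3 tested genes of other antizymes and near copies were called. Eif5a itself was at 271, 311 and 369 CPM in CON and 266, 262 and 260 CPM in T + E2, without overlap (log2 fold change -0.27, edgeR adjusted p = 0.155). Oaz2, the second antizyme, had a log2 fold change of -0.15 (edgeR adjusted p = 0.707), and CON mouse 1 held its highest level, 58.8 CPM against 28.8 to 39.2 CPM elsewhere. Without that mouse the log2 fold change of Oaz2 was 0.22, and without CON mouse 2 or CON mouse 3 it was -0.34 and -0.26 (none of them called).

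Odc1 is a known target of Myc and Max, which bind E-boxes, and Mxd1 and Mnt compete with Myc for Max. Max was at 110, 113 and 114 CPM in CON and 154, 146 and 137 CPM in T + E2 (log2 fold change 0.37, edgeR adjusted p = 0.0204). Mxd1 was at 22.3, 24.1 and 24.0 CPM in CON and 17.5, 15.8 and 17.4 CPM in T + E2 (log2 fold change -0.47, edgeR adjusted p = 0.0152). The groups were apart for both genes. Both calls were lost in some fits with fewer mice, in which the log2 fold changes stayed about as large. Max had 0.35, 0.37, 0.38 and 0.33 without CON mouse 1, CON mouse 2, CON mouse 3 and T + E2 mouse 1 (edgeR adjusted p = 0.0586, 0.0701, 0.0592 and 0.0904). Mxd1 had -0.46 without CON mouse 2 and also without CON mouse 3 (edgeR adjusted p = 0.0549 and 0.0538). Without both libraries with seminal vesicle transcripts, Max had 0.37 (edgeR adjusted p = 0.117) and Mxd1 -0.41 (edgeR adjusted p = 0.126). With the replicate number as a block, Max had 0.37 (edgeR adjusted p = 0.0618) and Mxd1 -0.47 (edgeR adjusted p = 0.0510). Myc was at 34.8, 43.2 and 45.3 CPM in CON and 26.6, 25.8 and 39.0 CPM in T + E2, where T + E2 mouse 3 overlapped the controls (log2 fold change -0.43, edgeR adjusted p = 0.127). Without that mouse the log2 fold change of Myc was -0.65 (edgeR adjusted p = 0.0227). Mnt was not called (log2 fold change -0.23, edgeR adjusted p = 0.308).

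**Figure D5:**
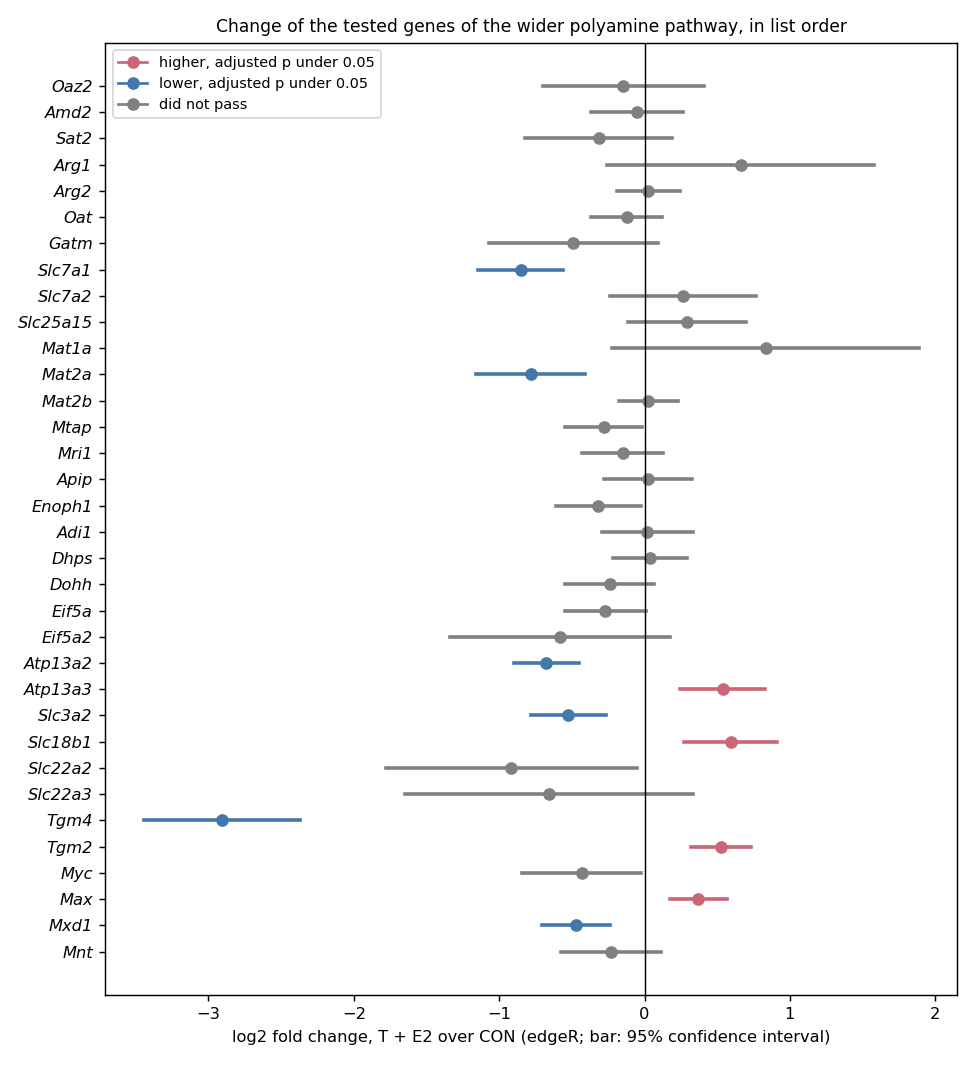
Log2 fold change of T + E2 over CON (horizontal axis) for the 34 tested genes of the wider polyamine list, in list order. Points are edgeR estimates over 3 mice per group and bars are 95% confidence intervals; 4 genes are higher, 6 lower and 24 grey genes were not called. Tgm4, at -2.91, lies farthest from 0.

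The plot of the wider list shows the called transport genes on both sides of 0.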

How the data were processed

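Prostate RNA of 3 CON and 3 T + E2 mice was sequenced from paired-end TruSeq libraries. The authors deposited read counts and FPKM values per gene. The submitters' processing notes name TopHat, Bowtie2 and HTSeq. The genome build, annotation, strand setting and versions are not given in the sources used here, but gene positions matched GRCm38. The FPKM lengths equalled the summed length of all distinct annotated exons in 66.1% of 11893 genes (within 1 base), which understates genes with many isoforms and does not affect comparisons between groups.

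Counts were analysed with edgeR 4.0.16 in R 4.3.3 (filterByExpr with a minimum count of 10 and a total of 15, TMM scaling, quasi-likelihood test, Benjamini-Hochberg adjustment over 15580 genes). The study's methods used DESeq2 with an absolute log2 fold change over 1. Alternatives were other scalings and filters, DESeq2 1.42.0, limma 3.58.1 on log2(FPKM + 0.1) and log2(FPKM + 1), a replicate block, each mouse left out, and 2 alternatives chosen after seeing the data. Similar transcripts were found with BLAST 2.17.0. The procedure was tested on simulated counts. No replicates agreed within counting noise (chi-square per degree of freedom 16.7 to 36.4). The floor of 3 counts covers counting error only.

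The members and the gene lists were chosen with earlier results of these data known. All members are named. Of the wider list, the called genes and up to 2 abundant uncalled genes per sublist are named, and other genes only as cell markers or near copies; Aoc1 and Echs1 were added after their values were seen. A few genes of the wider and marker lists are not reported here and were left out of the list counts, but not of the fit.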

Additional observations from a re-analysis of the deposited data

How the results depend on the processing

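Azin1 and Sms kept their direction and call under all 17 alternatives. The count of members higher in T + E2 was 2 without CON mouse 2 (range 1 to 2 with single mice left out) and 0 with an absolute log2 fold change over 1. Wider-list genes higher ranged from 2 to 5 with single mice left out and numbered 2 without the 2 libraries with seminal vesicle transcripts. All genes called ranged from 1929 to 2741 with single mice left out (1929 without CON mouse 3 and 1978 without T + E2 mouse 2), and 1354 were called without those 2 libraries, against 3061. Among the 26 named genes refitted, signs turned for Oaz1, Adi1, Sat1, Smox, Oaz2 and Srm, none of them called. Oaz1 had log2 fold changes of -0.0145 (total count), -0.00792 (upper quartile), -0.00668 and -0.00669 (limma with 0.1 and 1 added), -0.0329 without the 2 libraries and -0.0818 to 0.143 with single mice left out. Adi1 had -0.0172 (total count), -0.0100 (upper quartile), -0.0128 and -0.0126 (limma). With single mice left out, Adi1 ranged from -0.0712 to 0.146, Sat1 from -0.253 to 0.0232, Smox from -0.00073 to 0.0836 and Oaz2 from -0.341 to 0.218. Srm was 0.00205 without the 2 libraries. The cause of these shifts was not tested. Among wider-list genes, calls were lost in some fits with fewer mice for Mat2a, Atp13a3, Slc3a2, Slc18b1, Max and Mxd1.

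The replicate numbers did not pair the mice: the correlations of same-numbered deviations were -0.0516, 0.0275 and 0.0463. With the replicate number as a block 2174 genes were called, the members stayed at 1 higher (Azin1, log2 fold change 0.92) and 1 lower (Sms, -1.24), and 3 wider-list genes were higher and 5 lower. Max (log2 fold change 0.37, edgeR adjusted p = 0.0618) and Mxd1 (-0.47, 0.0510) were not called under the block, with log2 fold changes about as large as without it. At 27 to 43 counts, Paox could have changed by the sizes in its interval without being called.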
